A study of Mus musculus with 6 samples.

Results

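A group of 10 genes of the retinal vessels were followed in whole mouse retina at postnatal day 12, out of 24346 gene symbols measured. They were chosen by symbol, as genes of endothelial cells (Pecam1, Cdh5, Kdr, Flt1 and Tek), of the endothelial barrier (Cldn5 and Mfsd2a), of pericytes (Pdgfrb and Rgs5) and of the VEGF signal itself (Vegfa). All 10 were found, and all 10 passed the filter on low values (average level of 0.5 FPKM or more), as did 14325 genes in all. FPKM counts sequenced fragments per length of transcript and per size of the library, so levels can be compared between genes per length. The 3 control libraries came from mice with the genotype Panky+/-;Panky-like+/-;Nrl-/- and the 3 triple-deficient libraries from mice with the genotype Panky-/-;Panky-like-/-;Nrl-/-. All 6 therefore lack Nrl, the transcription factor that rods need to form, and the controls are heterozygous mutants and not wild type. The study describes them as littermate pairs. Panky is Ankrd33, a transcriptional co-repressor of photoreceptors, and Panky-like was read as the paralog Ankrd33b, an assignment the labels leave unstated. No label says whether each library came from its own animal, so p-values cover only the spread between these libraries.

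The inner retina is fed by vessels that grow after birth over a template of astrocytes and then dive into deeper layers. VEGF-A, made by glia and neurons that lack oxygen, binds the receptor encoded by Kdr on endothelial cells, while the receptor encoded by Flt1 acts largely as a decoy that binds the same ligand. Angiopoietins act through the receptor encoded by Tek. Endothelial cells then close the blood-retina barrier with tight junctions and low transcytosis, and pericytes, which wrap the capillaries, support that barrier.

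The libraries held about 18.1 to 27.2 M fragments, estimated from the steps of low values. Ankrd33b ranged from 32.6 to 35.4 FPKM in the controls against 1.31 to 1.805 FPKM in the triple-deficient group (log2 change -3.80, limma adjusted p = 4.56e-07). Ankrd33 ranged from 104 to 109.7 FPKM against 50.5 to 59.6 FPKM (log2 change -0.93, limma adjusted p = 0.00274). Nrl RNA was read in every library, with group means of 44.2 ± 5.46 and 52.5 ± 1.16 FPKM (SD, n = 3), and a value per gene does not show which exons are left. Triple-deficient 3 stood apart in base composition: its deviations from the mean of all libraries correlated with transcript GC content at Spearman -0.59 across 14220 genes, which are not independent, against 0.07 to 0.30 in the other libraries. In bulk RNA, fewer cells of a type and less RNA per cell cannot be told apart.

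None of the 10 vascular genes passed the test between genotypes. The share of all genes tested that passed limma's threshold (adjusted p below 0.05) was 0.0279%. Those higher in triple-deficient retina made up 0.00698% of all genes tested, and those lower 0.0209%. Without adjustment 1 of the 10, Mfsd2a, had p below 0.05, beside 5.09% of all genes (1.76% higher and 3.33% lower). The groups did not overlap for 3 of the 10, with Flt1 and Pdgfrb higher and Mfsd2a lower in triple-deficient retina, where 4.86% of all genes tested had every triple-deficient library higher and 5.64% every one lower. Changes, here always the triple-deficient minus the control mean of log2(FPKM + 1), ran from -0.19 to 0.14 with a median of 0.03, against a median of 0.003 over all genes tested. Of the changes 6 were above 0 and 4 below, and the 95% confidence intervals together ran from -0.34 to 0.29. For genes with low values this scale makes a change look smaller than it is.

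**Figure D1:**
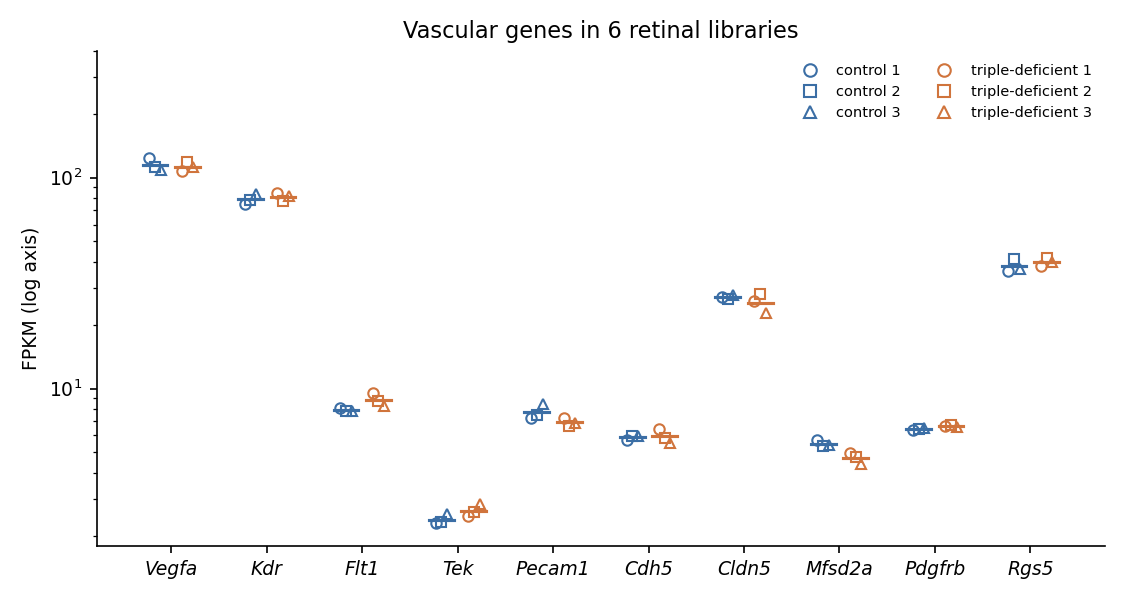
FPKM on a log axis (vertical) of the 10 vascular genes (horizontal) in the 3 control (blue) and 3 triple-deficient (orange) libraries. Points are libraries, the symbol giving the library number, and bars are group means; levels span from Tek at about 2.5 FPKM to Vegfa at 114 FPKM, and the 2 groups lie close together for every gene.

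The order of levels was set by gene and not by genotype. Vegfa was highest with a mean of 114 FPKM over the 6 libraries, above 96.2% of all genes tested. Kdr followed at 80.2, Rgs5 at 39.0 and Cldn5 at 26.4 FPKM, and each of these was above the next in all 6 libraries without overlap. Below them Flt1 (8.40 FPKM), Pecam1 (7.34), Pdgfrb (6.54), Cdh5 (5.91) and Mfsd2a (5.09) formed a close series in which the ranges of neighbours overlapped over the 6 libraries, although Pdgfrb was above Cdh5 within each library. Tek was lowest at 2.51 FPKM, below Mfsd2a in every library.

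Kdr stood 13.1 to 14.8 times above Cdh5 and 9.86 to 11.9 times above Pecam1 within a library, on the FPKM scale. Cdh5 and Pecam1 encode adhesion molecules found chiefly on endothelial cells, while Kdr is known to be transcribed by retinal neurons as well, so its level in whole retina is not a measure of endothelium alone. Vegfa likewise comes mostly from glia and neurons. Tie1, the partner receptor of Tek, had a control mean of 5.56 ± 0.374 FPKM, near that of Cdh5 (5.88 ± 0.176 FPKM).

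The ligand Vegfa (GRCm38 chr17:46016993-46032377) was at 124, 112 and 109 FPKM in control libraries 1, 2 and 3 and at 108, 118 and 112 FPKM in triple-deficient libraries 1, 2 and 3. Control 1 was highest and triple-deficient 1 lowest, and the groups overlapped. The log2 change was -0.03 (SE 0.061, 95% interval -0.17 to 0.11, limma adjusted p = 0.975).

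Kdr, the main signalling receptor for VEGF-A (chr5:75932827-75979072), was at 75.4, 78.1 and 83.5 FPKM in the controls and at 84.3, 77.9 and 82.1 FPKM in the triple-deficient libraries. The groups overlapped, and the log2 change was 0.04 (SE 0.054, interval -0.08 to 0.17, limma adjusted p = 0.959). Flt1, the decoy receptor (chr5:147561604-147726438), was at 8.06, 7.85 and 7.86 FPKM in the controls and at 9.57, 8.76 and 8.26 FPKM in the triple-deficient libraries. Every triple-deficient library was above every control, and the SD was 0.119 FPKM among controls and 0.659 FPKM among triple-deficient libraries. The log2 change of Flt1 was 0.14 (SE 0.065, interval -0.01 to 0.29, limma adjusted p = 0.943), so it did not pass.

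Tek, the angiopoietin receptor (chr4:94739086-94874976), was at 2.32, 2.33 and 2.53 FPKM in the controls and at 2.48, 2.59 and 2.83 FPKM in the triple-deficient libraries. Only control 3 reached into the range of the triple-deficient libraries. The log2 change was 0.10 (SE 0.075, limma adjusted p = 0.954).

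The pan-endothelial genes did not share 1 direction. Pecam1, an adhesion molecule at endothelial contacts (chr11:106654213-106715281), was at 7.23, 7.505 and 8.46 FPKM in the controls and at 7.27, 6.66 and 6.89 FPKM in the triple-deficient libraries. The groups met at control 1 and triple-deficient 1, and the log2 change was -0.14 (SE 0.071, interval -0.30 to 0.03, limma adjusted p = 0.943). Cdh5, the cadherin of endothelial adherens junctions (chr8:104101613-104144504), was at 5.68, 5.98 and 5.99 FPKM in the controls and at 6.45, 5.83 and 5.53 FPKM in the triple-deficient libraries. Its highest and its lowest value both came from triple-deficient retina, and the genotypes differed by 0.01 on the log2 scale (SE 0.069, limma adjusted p = 0.995).

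**Figure D2:**
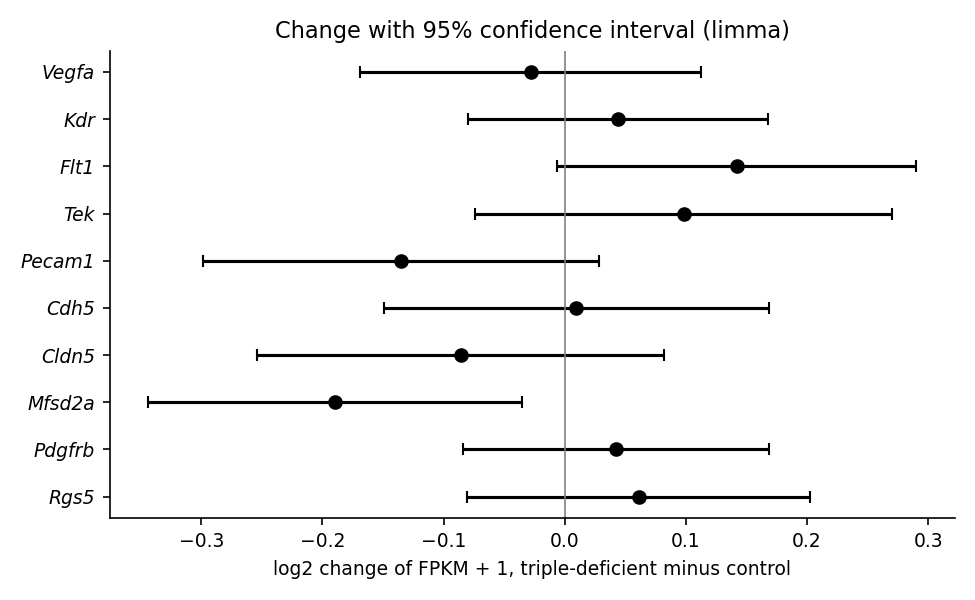
Change of each vascular gene between genotypes (horizontal, log2 of FPKM + 1, triple-deficient minus control), with limma's 95% confidence interval as bars. The intervals include 0 for 9 of the 10 genes; that of Mfsd2a runs from -0.34 to -0.04.

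Across the 6 libraries the 7 endothelial and barrier genes did not vary as a block. Of their 21 pairs, 12 had a Pearson correlation above 0 and 9 below 0, with a median of 0.21 and a range of -0.90 to 0.66 over 6 libraries of log2(FPKM + 1) values. These are descriptions of values that share depth and base composition within a library. The lowest was that of Mfsd2a with Tek. Vegfa and its receptor Kdr, over the same 6 libraries, had a correlation of -0.92.

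Cldn5, the dominant claudin of endothelial tight junctions (chr16:18776847-18778262), was at 27.2, 26.5 and 27.7 FPKM in the controls and at 26.0, 28.0 and 22.7 FPKM in the triple-deficient libraries. Triple-deficient 2 was the highest of all libraries and triple-deficient 3 the lowest, so the groups overlapped. The log2 change was -0.09 (SE 0.073, interval -0.25 to 0.08, limma adjusted p = 0.958). The Cldn5 transcript is 60.5% GC, the highest of the 10 genes, and once each library's trend with GC content was removed its change was 0.002. Without triple-deficient 3 the change was -0.006.

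Mfsd2a, a lipid transporter of barrier endothelium that restrains transcytosis (chr4:122946850-122961194), was at 5.70, 5.36 and 5.40 FPKM in the controls and at 4.97, 4.73 and 4.38 FPKM in the triple-deficient libraries. No triple-deficient library reached the lowest control, and the mean differed by -14.5%. The log2 change was -0.19 (SE 0.067, interval -0.34 to -0.04), with limma adjusted p = 0.866, so it did not pass over all genes. It remained below 0 in each of 15 alternative settings, between -0.22 and -0.15, and with the GC trend removed it was -0.17. About 170 to 290 fragments per library stood behind Mfsd2a, by an estimate from the longest GENCODE transcript, and 170 fragments alone carry a counting error of 7.65%.

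Mfsd2a is also a gene of the retinal pigment epithelium, the cell layer behind the photoreceptors, and the markers of that tissue were read beside it. Of 6 tested markers 3 had groups that did not overlap, all lower in triple-deficient retina. Over all genes tested, 5.64% had every triple-deficient library lower. The 3 markers were named after their values were seen. Ttr, a transport protein of thyroid hormone and retinol, averaged 15.8 ± 3.26 FPKM in controls against 8.81 ± 1.66 FPKM. For the melanosome genes the means, in the same order, were for Tyrp1 3.46 ± 0.333 and 1.95 ± 0.399 FPKM, and for Pmel 3.84 ± 1.42 and 1.61 ± 0.173 FPKM (SD, n = 3). None of them passed over all genes (limma adjusted p = 0.508, 0.472 and 0.651), although Pmel did without control 3 (log2 change -1.12, adjusted p = 0.0233). Rpe65, the retinoid isomerase, was at 2.59 ± 0.600 and 2.32 ± 1.29 FPKM, and Dct, a melanin enzyme, at 21.3 ± 4.57 and 25.4 ± 5.67 FPKM. The summed level of all 8 markers in the tables was 284 to 297 FPKM in controls and 240.3 to 292 FPKM in triple-deficient libraries, and without Rlbp1, which Müller glia also express, 43.1 to 55.0 and 31.9 to 44.8 FPKM. Dct was the only tested marker with a change above 0, and it was left out of a further sum after its values were seen. Without it the sums were 20.1 to 30.3 FPKM and 12.5 to 18.8 FPKM. These did not overlap, while the sums with Dct did. The gap follows from a choice made on these values and is no separate result. Ttr alone gave 18.0 of the 30.3 FPKM in control 1 and 7.42 of the 12.5 FPKM in triple-deficient 1. One marker, Mlana, was at 0 in triple-deficient 3. The part of these cells in the difference of Mfsd2a was not tested.

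**Figure D3:**
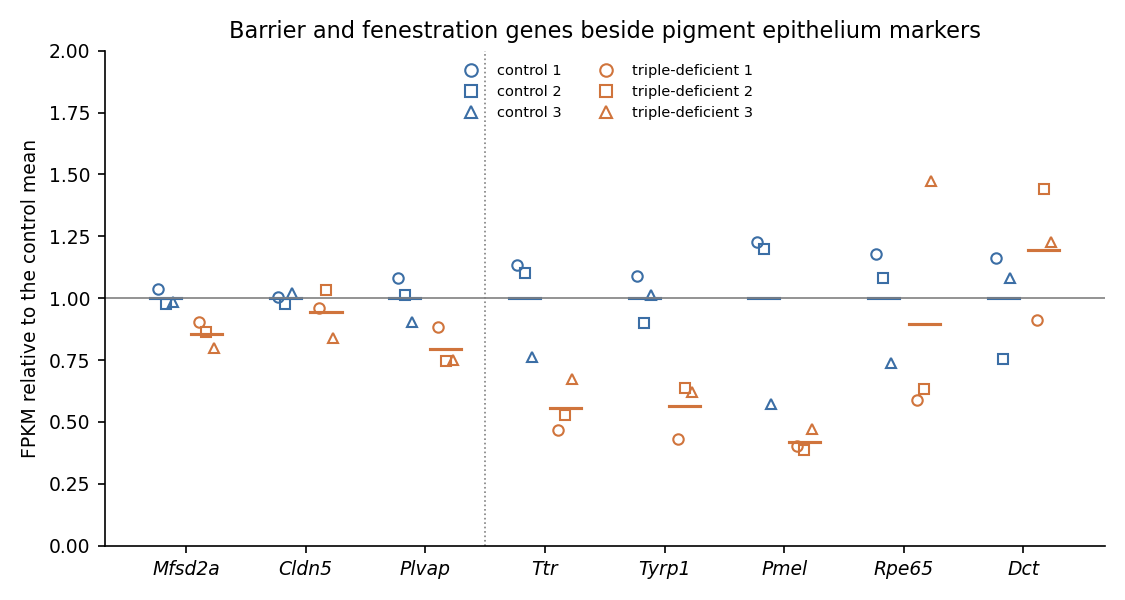
FPKM relative to the control mean (vertical) of the barrier genes Mfsd2a and Cldn5 and the fenestration gene Plvap, left of the dotted line, and of 5 pigment epithelium and melanocyte markers, right of it, in 3 control (blue) and 3 triple-deficient (orange) libraries; bars are means. Mfsd2a, Plvap, Ttr, Tyrp1 and Pmel are lower in all 3 triple-deficient libraries than in any control, while Cldn5, Rpe65 and Dct overlap. The other markers of that list, Rlbp1, Best1 and Mlana, are not drawn, and their groups overlapped as well.

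The start regions of 4 of these genes are shown because they stand for the endothelial receptor and the barrier gene whose groups did not overlap, for the tight junction gene that overlapped, and for a pericyte gene. The windows come from RefSeq on GRCm38.p6 and were matched for 7 of the 10 genes; those of Pecam1, Cdh5 and Pdgfrb were not used here. Each line gives the 150 bases before the annotated start site, 5′ to 3′ on the gene's strand. Capitals mark GGAA (TTCC on the other strand), the core that ETS factors of endothelial cells bind, and ACGTG or GCGTG, the core that hypoxia-inducible factors bind, on either strand.
Flt1 (chr5:147726012-147726161, minus strand): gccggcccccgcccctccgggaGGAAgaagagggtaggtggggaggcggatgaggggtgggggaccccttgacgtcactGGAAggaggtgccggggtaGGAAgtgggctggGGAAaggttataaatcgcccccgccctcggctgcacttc
Mfsd2a (chr4:122961189-122961338, minus strand): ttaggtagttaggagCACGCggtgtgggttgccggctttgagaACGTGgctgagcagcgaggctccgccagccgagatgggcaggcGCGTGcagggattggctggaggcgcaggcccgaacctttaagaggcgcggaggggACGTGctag
Cldn5 (chr16:18776697-18776846, plus strand): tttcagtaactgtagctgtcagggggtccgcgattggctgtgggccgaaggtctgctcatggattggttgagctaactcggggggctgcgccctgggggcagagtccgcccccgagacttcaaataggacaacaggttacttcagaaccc
Rgs5 (chr1:169655351-169655500, plus strand): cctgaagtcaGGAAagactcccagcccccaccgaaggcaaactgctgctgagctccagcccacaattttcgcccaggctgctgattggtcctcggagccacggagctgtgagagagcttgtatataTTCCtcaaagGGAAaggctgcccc

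The shown stretch of Flt1 held 4 matches to GGAA and also TATAAA, and that of Rgs5 held 3 matches to GGAA. Cldn5 held none in its 250 bases before the start, where 93.4% of 32851 such windows of all genes hold at least 1. Mfsd2a held 2 matches to GGAA in its 250 bases but none in the shown stretch. It held 2 matches to ACGTG and 2 to GCGTG in either length. Over 250 bases Rgs5 held the same counts as in the shown stretch. Flt1 did so for GGAA, ACGTG and TATAAA. For GCGTG it held 1 match over 250 bases and 0 in the shown stretch. ACGTG is present in 16.6%, GCGTG in 28.2% and TATAAA in 12.4% of all 250-base windows, and the median window holds 3 matches to GGAA. In these 4 stretches no match overlapped another. A match is a run of letters and not a shown binding site.

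The pericyte genes both had changes above 0 that did not pass. Pdgfrb, the receptor that holds pericytes to the vessel through PDGF-B from endothelium (chr18:61045127-61085067), was at 6.36, 6.41 and 6.52 FPKM in the controls and at 6.65, 6.75 and 6.55 FPKM in the triple-deficient libraries. The groups did not overlap, although the highest control (6.52) and the lowest triple-deficient library (6.55) lay close, and the log2 change was 0.04 (SE 0.055, interval -0.08 to 0.17, limma adjusted p = 0.960). Its coefficient of variation over all 6 libraries was 2.23%, the lowest of the 10 genes, against 9.62% for Mfsd2a, the highest. About 640 to 980 fragments per library stood behind Pdgfrb, by the estimate used for Mfsd2a. At 640 fragments the counting error alone is 3.94%, more than the 2.23% seen, so the narrow gap between the groups lies within it. Rgs5, a regulator of G protein signalling that marks pericytes (chr1:169655501-169695813), was at 36.2, 41.4 and 37.0 FPKM in the controls and at 38.1, 41.5 and 39.9 FPKM in the triple-deficient libraries. The groups overlapped, and the log2 change was 0.06 (SE 0.062, limma adjusted p = 0.958).

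Ratios of 2 genes within a library do not depend on scaling between libraries, and 6 were compared with a two-sided exact permutation test, whose smallest possible p with 3 against 3 libraries is 0.10. Pdgfrb to Pecam1, a pericyte to endothelial ratio, was 0.880, 0.855 and 0.770 in the controls and 0.915, 1.01 and 0.951 in the triple-deficient libraries. All triple-deficient values were higher (log2 difference 0.20, exact permutation p = 0.10, adjusted over 6 ratios 0.30). Mfsd2a to Cdh5 was 1.004, 0.897 and 0.901 in the controls and 0.771, 0.811 and 0.791 in the triple-deficient libraries, all lower (log2 difference -0.24, exact permutation p = 0.10, adjusted 0.30).

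The other 4 ratios overlapped between the groups. Cldn5 to Cdh5 was 4.61 ± 0.185 and 4.31 ± 0.424 (SD, n = 3; exact permutation p = 0.40), and Flt1 to Kdr, decoy to signalling receptor, 0.101 ± 0.006 and 0.109 ± 0.007 (exact permutation p = 0.20). Vegfa to Kdr, ligand to receptor, was 1.46 ± 0.173 and 1.39 ± 0.119 (exact permutation p = 0.60), and Rgs5 to Pdgfrb 5.94 ± 0.442 and 5.99 ± 0.230 (exact permutation p = 0.80). No ratio could pass at this sample size.

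**Figure D4:**
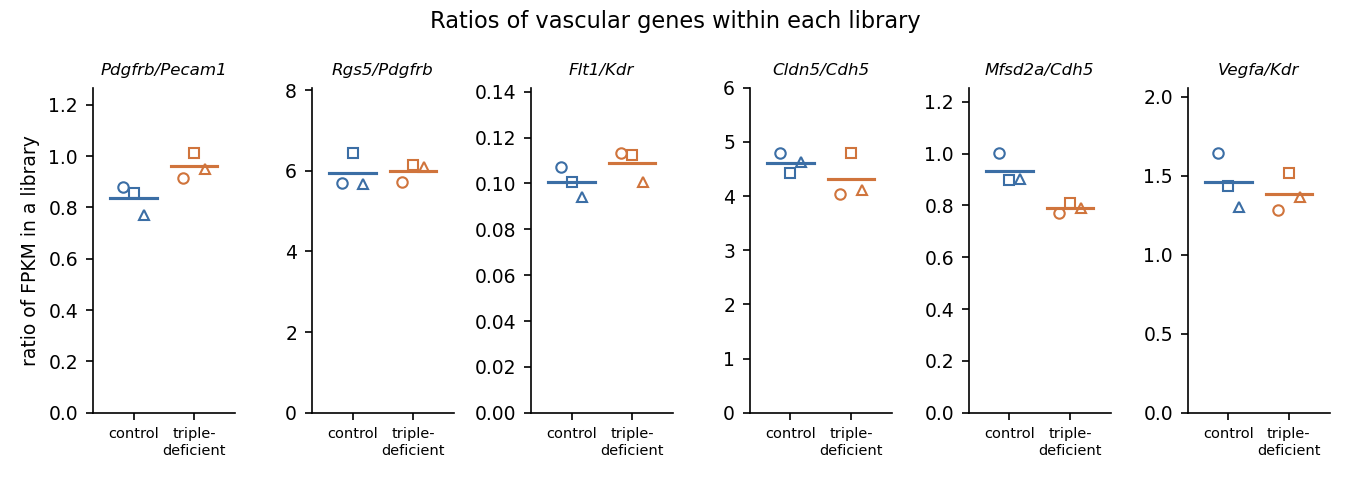
Ratio of the FPKM of 2 genes within each library (vertical, linear axes from 0, 1 panel per ratio) in 3 control (blue) and 3 triple-deficient (orange) libraries; bars are means. The groups are apart for Pdgfrb/Pecam1 and Mfsd2a/Cdh5 and overlap in the other 4 panels.

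The surrounding pathways were read from 9 lists with 120 tested genes in all. No gene of these lists passed limma's threshold in either direction. Without adjustment 10 genes had p below 0.05, and for 15 genes, 12.5%, the groups did not overlap, beside 10.5% of all genes tested. Their median log2 change was 0.01, with 65 genes above 0 and 55 below.

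The other ligands and receptors of the VEGF family all had changes below 0, 6 of 6 tested, beside 6911 of all 14325 genes. Their median was -0.10, and none had groups apart. Vegfb was at 23.6 ± 1.92 and 22.1 ± 2.58 FPKM, Vegfc, the lymphatic growth factor, at 1.995 ± 0.175 and 1.76 ± 0.215 FPKM, and placental growth factor, Pgf, at 0.798 ± 0.248 and 0.655 ± 0.0407 FPKM (SD, n = 3). Flt4, the receptor for VEGF-C, was at 2.05 ± 0.112 and 1.78 ± 0.181 FPKM, and the co-receptor Nrp1 at 7.31 ± 0.467 and 6.92 ± 0.477 FPKM. The co-receptor Nrp2 was at 6.51 ± 0.188 and 6.17 ± 0.3195 FPKM. In these pairs the control mean comes first, here and for the lists that follow. The change of Vegfb, -0.09, was 0.03 once the GC trend was removed. Vegfa exceeded Vegfb 4.32 to 5.86 times within a library and Vegfc 51.1 to 72.7 times.

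In the angiopoietin and Tie list 3 of 5 tested genes had groups apart, 2 higher and 1 lower. Over all genes tested, 4.86% had every triple-deficient library higher and 5.64% every one lower. Angpt1, the ligand that activates the Tek receptor and settles vessels, was at 0.772, 0.877 and 0.695 FPKM in the controls and at 1.04, 1.43 and 1.04 FPKM in the triple-deficient libraries. The groups did not overlap, and the log2 change of 0.28 (SE 0.102, limma adjusted p = 0.870) did not pass. Angpt1 (chr15:42424667-42676977) shares its chromosome with both targeted genes, Ankrd33b (chr15:31291479-31367802) and Ankrd33 (chr15:101115744-101120028). Whether this position bears on the change of Angpt1 was not tested. Angpt2, the context-dependent antagonist, was at 3.24 ± 0.302 and 3.23 ± 0.417 FPKM, so it exceeded Angpt1 by 4.14 times in the means of the controls and 2.76 times in those of triple-deficient retina. Ptprb, the endothelial phosphatase that damps Tek signalling, was at 3.38 ± 0.321 and 3.96 ± 0.226 FPKM, all triple-deficient libraries higher (limma adjusted p = 0.943). Angptl4, the 1 lower, is a lipase inhibitor that also responds to hypoxia, and not an angiopoietin. It was at 1.83 ± 0.0351 and 1.45 ± 0.151 FPKM (limma adjusted p = 0.912). Tie1 stood at 5.45 ± 0.441 FPKM in triple-deficient retina, a log2 change of -0.02.

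**Figure D5:**
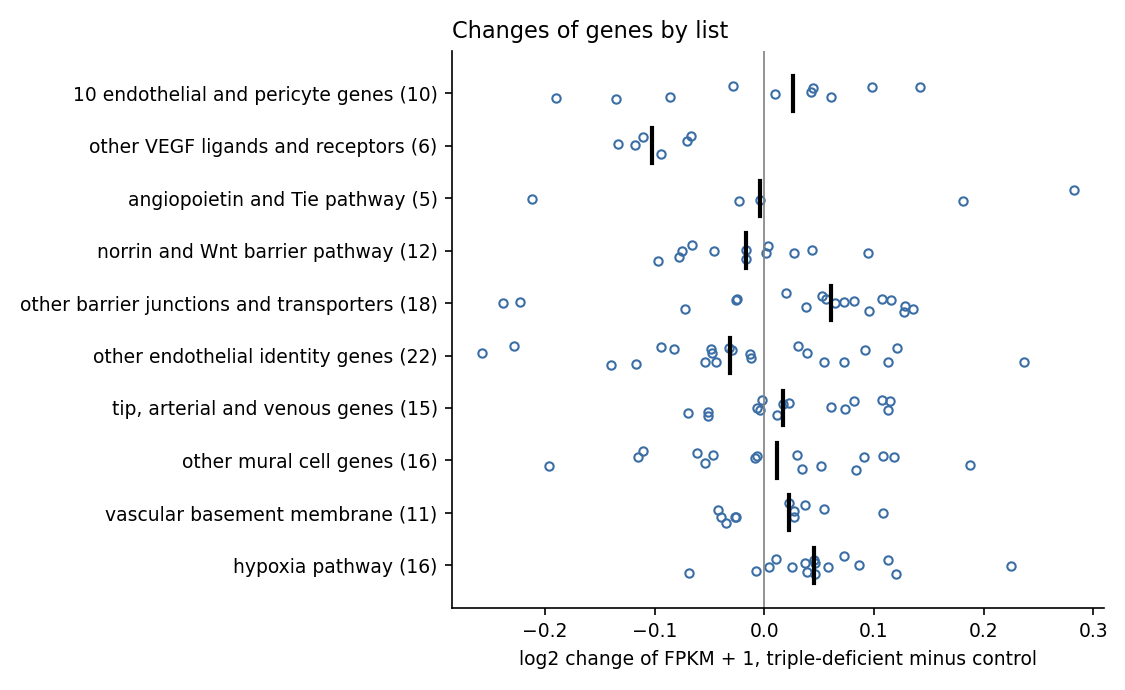
Log2 change of FPKM + 1, triple-deficient minus control (horizontal), of each tested gene (points, scattered vertically for view) in the 10 vascular genes and in 9 pathway lists, with the number tested in brackets and the median as a black bar. Medians lie between -0.10 and 0.06, and no gene shown passed the test over all genes.

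In the norrin and Wnt pathway, through which Müller glia induce the barrier, 1 of 12 tested genes had groups apart, beside 10.5% of all. This was Axin2, a feedback target of Wnt signalling, at 8.64 ± 0.419 and 8.01 ± 0.178 FPKM (limma adjusted p = 0.946). Ndp, the norrin ligand, was at 6.35 ± 0.566 and 5.96 ± 0.159 FPKM, and Tspan12, its receptor's co-activator, at 7.499 ± 0.0414 and 7.12 ± 0.359 FPKM, with a list median of -0.02.

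Among 18 other barrier genes the groups were apart for 6, beside 10.5% of all genes tested, with 4 higher and 2 lower. The median of these barrier genes was 0.06. Plvap, the diaphragm protein of fenestrated vessels, which retinal barrier capillaries lose and the choroid keeps, was at 3.01, 2.82 and 2.52 FPKM in the controls and at 2.46, 2.08 and 2.09 FPKM in the triple-deficient libraries. All were lower (log2 change -0.24, SE 0.086, limma adjusted p = 0.870), as was Foxq1, a transcription factor of barrier endothelium, at 1.64 ± 0.120 and 1.26 ± 0.0998 FPKM (adjusted p = 0.893). Itm2a, a membrane protein of barrier endothelium, was at 24.8 ± 0.426 and 27.4 ± 1.71 FPKM (adjusted p = 0.930). Within a library Cldn5 exceeded Plvap 9.05 to 13.5 times. Plvap, like Ttr, Tyrp1 and Pmel, was lower in all triple-deficient libraries. The groups of the other pigment epithelium markers, among them Rpe65, Rlbp1 and Dct, overlapped. The part of pigment epithelium in Plvap was not tested. The Plvap transcript is 60.6% GC, and with the GC trend removed its change was -0.15.

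Of 22 other endothelial identity genes 3 had groups apart (13.6%, beside 10.5% of all genes tested), 2 higher and 1 lower. Icam2, an endothelial adhesion molecule, was at 2.11 ± 0.191 and 2.68 ± 0.372 FPKM, and Ecscr, a regulator of endothelial migration, at 4.63 ± 0.295 and 3.82 ± 0.454 FPKM (limma adjusted p = 0.930 and 0.912). Sox18, a transcription factor of vessel development, was at 4.45 ± 0.166 and 3.60 ± 0.784 FPKM with groups that overlapped. The list's median was -0.03, so the genes that mark the same cells as Pecam1 and Cdh5 lay on both sides of 0.

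Of the genes of sprouting tips, arteries and veins that passed the filter (15 tested, median 0.02), none had groups apart. Hey2, an arterial Notch target, was at 7.09 ± 0.927 and 7.73 ± 0.468 FPKM, Notch1 at 9.12 ± 0.160 and 9.66 ± 0.600 FPKM, and Apln, a peptide of tip cells, at 3.97 ± 0.569 and 4.36 ± 0.459 FPKM. Esm1, a defining tip cell gene, stayed below the filter, with 0.124 FPKM as its highest value in any library. Gja5, a gap junction gene of arteries, also stayed below it, at 0.0836 to 0.204 FPKM in controls against 0.222 to 0.323 FPKM, groups apart but not tested.

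Of the other mural cell genes that passed the filter (16 tested, median 0.01), 1 had groups apart, beside 10.5% of all genes tested. Below the filter, Myh11, the smooth muscle myosin, was at 0.236 to 0.273 FPKM in controls against 0.352 to 0.448 FPKM, apart as well but not tested. Foxf2, a transcription factor that pericytes need, was at 1.94 ± 0.199 and 1.57 ± 0.299 FPKM, Higd1b, a pericyte marker, at 2.85 ± 0.444 and 3.38 ± 0.439 FPKM, and Rgs4, which neurons also express, at 35.5 ± 2.97 and 38.6 ± 3.15 FPKM. The tested gene with groups apart was Abcc9, a subunit of the potassium channel of pericytes, at 3.99 ± 0.200 and 4.32 ± 0.0907 FPKM (limma adjusted p = 0.946), named after its values were seen.

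Vascular basement membrane genes (11 tested, median 0.02) showed none with groups apart. Fn1, fibronectin, was at 25.1 ± 1.07 and 27.1 ± 1.36 FPKM, the laminin chain Lama4 at 4.75 ± 0.431 and 4.96 ± 0.182 FPKM, and the laminin chain Lamb1 at 8.64 ± 0.525 and 8.41 ± 0.355 FPKM.

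The hypoxia pathway bears on Vegfa, which is one of its targets. Of 16 tested genes 14 had changes above 0, beside 7414 of all 14325 genes tested. The median of the 16 was 0.05, and none passed. Hif1a, the oxygen-regulated subunit, was at 119, 121 and 117 FPKM in the controls and at 126, 128 and 134 FPKM in the triple-deficient libraries, with groups apart (log2 change 0.12, SE 0.045, limma adjusted p = 0.896). Egln3, an oxygen sensor induced by hypoxia, was at 4.37 ± 0.801 and 5.25 ± 0.501 FPKM, and Pfkfb3, a glycolytic regulator, at 8.03 ± 0.362 and 8.59 ± 0.458 FPKM. Vegfa itself had a change of -0.03, which reversed its sign in 2 of 15 alternative settings.

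Markers of other cells around the vessels were read beside these values. Gfap, of astrocytes and reactive Müller glia, was at 10.8 ± 1.28 and 10.97 ± 1.02 FPKM, and Rlbp1, of Müller glia and pigment epithelium, at 244 ± 3.63 and 224 ± 20.6 FPKM. The 6 fibroblast and sclera markers summed to 7.23 to 8.42 FPKM in controls against 7.09 to 8.66 FPKM, most of it from the collagen gene Col1a2 (4.44 to 6.004 FPKM over all libraries), while Col1a1 reached at most 0.237 FPKM and Dcn and Lum were at 0 in some libraries. Cryaa, of lens, was at 4.61 FPKM in control 1 and at most 0.129 FPKM elsewhere. Summed marker levels of microglia ran from 21.9 to 25.9 FPKM in controls and from 21.4 to 23.8 FPKM in triple-deficient libraries, and those of astrocytes from 31.0 to 35.5 and from 32.7 to 34.7 FPKM.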

How the data were processed

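Whole-retina RNA went into stranded mRNA libraries, per the labels' protocols. The authors deposited 1 table of FPKM values per library, with 24346 gene symbols. The submitters' processing notes name the build mm10, Cufflinks 2.2.1, Cuffdiff, TopHat2 2.1.1 and Bowtie2 2.3.5.1. Their settings, the annotation, any scaling of libraries and the treatment of reads shared by near-identical genes were not given in the sources used here.

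The FPKM values were used as deposited. The genotypes were set against each other by limma 3.58.1 (R 4.3.3, trended variance, two-sided) on log2(FPKM + 1) of genes that averaged 0.5 FPKM or more, with Benjamini-Hochberg adjustment over all 14325 genes tested and a threshold of 0.05. No replicate number was in the model. The fit was tested on simulated data. Ratios were compared with an exact permutation test.

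Depth was estimated from values below 0.3 FPKM, which, set over control 1, gave ratios of whole numbers up to 6 for 61.1% to 64.1% of genes (within 0.005 on the log2 scale). No counts were rebuilt. GC content came from the longest GENCODE M21 transcript and was known for 99.3% of genes tested and for all 10 vascular genes. Same-numbered libraries deviated together at Pearson 0.02, 0.11 and 0.07 across genes, and differently numbered ones at -0.19 to 0.12. With so few libraries these values cannot decide whether the numbers mark littermate pairs. The labels do not say that they do, and the numbers were not taken as pairs.

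The vascular genes and all lists were chosen with earlier results of these data known. Named genes are the 10 vascular genes, up to 3 genes of each list with the smallest p, all tested VEGF and angiopoietin genes, the targeted genes, chosen markers of other cells and the genes most like the vascular genes over the libraries. Ttr, Tyrp1, Pmel, Dct, Mlana, Hba-a1, Hba-a2, Alas2, Slc4a1, Esm1, Gja5, Myh11, Col1a2, Dcn, Lum and Abcc9 were named after their values were seen. Alternatives were other pseudocounts, filters, normalization, array weights, a replicate block, removal of the GC trend and leaving out each library.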

Additional observations from a re-analysis of the deposited data

How the results depend on the processing

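None of the 10 vascular genes passed over all genes in any of 15 alternatives of the limma fit (pseudocount 0.1 or 0.5, no filter, a mean of at least 2 FPKM, quantile normalization, array quality weights, replicate block, GC trend removed, both, and each library left out), with adjusted p of 0.486 or more. At an unadjusted p below 0.05 there was 1 of the 10 under 11 of them. The other 4 were quantile normalization, array quality weights and removal of the GC trend (2 each, with Flt1) and the fit without control 1 (0). Without triple-deficient 3 that 1 gene was Flt1 and not Mfsd2a. The change kept its sign throughout for 7 of the 10. Among these, leaving out 1 library moved Kdr from 0.0442 to between 0.0116 (without control 1) and 0.0842 (without control 3), Rgs5 from 0.0611 to between 0.0256 (without control 1) and 0.119 (without control 2), Pecam1 from -0.135 to -0.0758 (without control 3), Tek from 0.0982 to 0.0600 (without triple-deficient 3) and Flt1 from 0.142 to 0.0913 (without triple-deficient 1). Removing the GC trend moved Rgs5 to 0.0252. For other results, leaving out 1 library gave changes from -0.0426 to 0.0518 for Cdh5, -0.0673 to 0.0274 for Vegfa, -0.157 to 0.00185 for Vegfb, -0.0767 to 0.0188 for Tie1, -0.0836 to 0.0522 for Angpt2, -0.00817 to 0.0948 for Lama4, -0.0672 to 0.00845 for Lamb1, -0.0622 to 0.0948 for Gfap, -0.463 to 0.00340 for Rpe65 and -0.179 to 0.213 for Hba-a1. For the log2 ratios it gave -0.0182 to 0.0747 for Rgs5 to Pdgfrb and -0.153 to 0.0159 for Vegfa to Kdr. With the GC trend removed, with or without the replicate block, the change was 0.00207 for Cldn5, 0.0346 for Vegfb, 0.0204 for Tie1 and 0.0315 for Hba-a1. It was 0.00193 for Angpt2 with quantile normalization and 0.0856 for Hba-a1 with array quality weights. The cause was not tested. Over all genes 4 passed; 2 passed with no filter, and 3 to 11 when 1 library was left out (7 without control 3, 10 without triple-deficient 1, 11 without triple-deficient 3). The replicate block left 4 genes and changed no call of a vascular gene; Mfsd2a had an adjusted p of 0.940 with it, and the libraries did not each correlate best with the one of the same number. The estimated depth limits Mfsd2a and Tek most.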

Other observations

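The genes whose values over the 6 libraries were most like the mean standardized pattern of the 7 endothelial and barrier genes were Tada3, Pik3r4, Ubap1, Magee1 and Gemin7, at Pearson 0.996, 0.993, 0.990, 0.988 and 0.987 among 13287 genes ranked. All are at higher levels than most of the 7, with means of 12.2 to 38.0 FPKM, and in each the highest pair of values was that of control 3 and triple-deficient 1. For the pericyte pair they were Tmem219 (Pearson 0.985), Nrg4 (0.985) and Ppara (0.980), each lowest in control 1 and highest in triple-deficient 2. With 6 libraries and this many genes, values this high are a description of shared library differences.

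Hba-a1, an alpha globin gene read as a marker of blood, was at 35.2, 26.8 and 26.8 FPKM in the controls. In the triple-deficient libraries it was at 37.2, 31.4 and 21.2 FPKM. Its near-identical copy Hba-a2 was listed at 0.018 FPKM and the beta globin gene Hbb-bs at 0.002 FPKM in every library. These pairs share sequence, and how the authors divided shared reads is not given in the sources used here, so the level of each copy is uncertain. Among other blood markers Alas2 averaged 1.15 FPKM and Slc4a1 0.035 FPKM over the 6 libraries. Which cells the Hba-a1 RNA came from was not tested.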
